A study of Homo sapiens with 6 samples.

Results

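BCL2 family proteins set the threshold for the mitochondrial pathway of apoptosis. Pro-survival members hold their relatives in check at the mitochondrial outer membrane, BH3-only members bind and neutralise the pro-survival proteins or activate the effectors, and the effectors form the pores through which cytochrome c leaves the mitochondrion. In glioma cells, as in many tumour cells, the balance between these classes is studied because it decides how readily the cells die after stress, and much of it is also set by splicing, translation and protein turnover, which gene-level RNA counts do not show.

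Transcripts of 10 BCL2 family genes were followed in A172, an established human glioblastoma cell line, between stable lines that received a lentiviral RBFOX1 construct and control lines that received GFP, 3 libraries of each. RBFOX1 is an RNA-binding protein that regulates splicing and mRNA stability and recognises TGCATG, as written in DNA letters. The genes were taken by name from the 58051 genes of the deposited count files. They are the pro-survival genes BCL2, BCL2L1, BCL2L2, MCL1 and BCL2A1, the effectors BAX and BAK1, and the BH3-only genes BCL2L11, PMAIP1 and BMF.

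Both groups were infected with virus made in HEK293T cells and differ by the expression plasmid, so that the comparison is of cells supplied with RBFOX1 against cells supplied with GFP. The methods give 3 biological replicates for each plasmid, and whether the lines are clones or pools is not given in the sources used here. In such bulk RNA, fewer cells with a transcript and less of it per cell cannot be told apart. RBFOX1 had at most 4 counts in a GFP library and at least 10276 in an RBFOX1 library. Counts on genes ran from 7433414 to 23249221 per library. Means are given ± SD over the 3 libraries of a group, and SE is the standard error of a log2 fold change. Values below are normalized counts, that is counts scaled by edgeR's TMM method to a library of average size, on which 3 counts were worth 1.82 to 5.44.

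As a check of the label, VIM, NES and CD44 were abundant, whereas GFAP had at most 4 and S100B at most 2 counts in a library, so the defining astrocyte markers were close to absent in both groups. Of the 8 markers of A172 and glial cells, 3 were higher and 3 lower in RBFOX1 cells, and their summed level ran from 76168 to 77787 normalized counts in GFP and from 51142 to 51971 in RBFOX1 cells. VIM and CD44 carried the fall in the sum, with VIM at 59588 ± 2927 and 37905 ± 522 and CD44 at 13766 ± 2041 and 7366 ± 415 normalized counts in GFP and RBFOX1 samples. CHI3L1 (6.94 ± 2.42 and 738 ± 36.8), SOX2 (23.5 ± 4.61 and 131.6 ± 9.65) and NES (3482 ± 160.1 and 5272 ± 248) rose. Of 10 markers of other cell types, 4 were higher, most of the sum being NEFL, a neurofilament gene (3949 ± 167 and 18162 ± 979). Without NEFL the other 9 summed to 42.0 to 58.3 normalized counts in GFP and 159.9 to 167.1 in RBFOX1 cells. The endothelial markers PECAM1 (7.39 ± 1.37 and 62.2 ± 10.5) and CDH5 (2.66 ± 1.79 and 15.5 ± 0.858) and the leukocyte marker PTPRC (16.1 ± 6.08 and 60.3 ± 9.95) rose. The leukocyte marker CD14 (6.83 ± 3.94 and 3.74 ± 2.57) went the other way without being called, and EPCAM and MBP were not called. MOG had no count in any library, and CD68 and RBFOX3 had at most 4. The part of these markers in the results below was not tested.

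All 9 members that could be tested differed between the groups, 5 being higher and 4 lower in RBFOX1 cells where the threshold was a Benjamini-Hochberg adjusted p of 0.05 from the quasi-likelihood test of edgeR, fitted to the 20536 genes that held at least 10 counts in all. Differences were common in these cells. Of all genes tested, 46.6% passed the same threshold, 23.7% higher and 22.9% lower in RBFOX1 cells, and of the 12012 with a mean of at least 50 normalized counts 63.8% passed it. In each of the 9 members the 3 RBFOX1 libraries lay wholly above or wholly below the 3 GFP libraries, as was the case for 53.4% of all genes tested. BCL2A1 (ENSG00000140379, chr15:79960892-79971196, minus strand), a pro-survival gene best known from blood cells, was not tested, with 3 counts in GFP replicate 1, 3 in RBFOX1 replicate 3 and 0 in the other libraries. No role moved in 1 direction only. The pro-survival genes split 2 and 2, the effectors 1 and 1, and of the BH3-only genes 2 rose and 1 fell. The median log2 fold change of the 9 members was 0.26, beside 0.0051 for all genes tested.

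**Figure D1:**
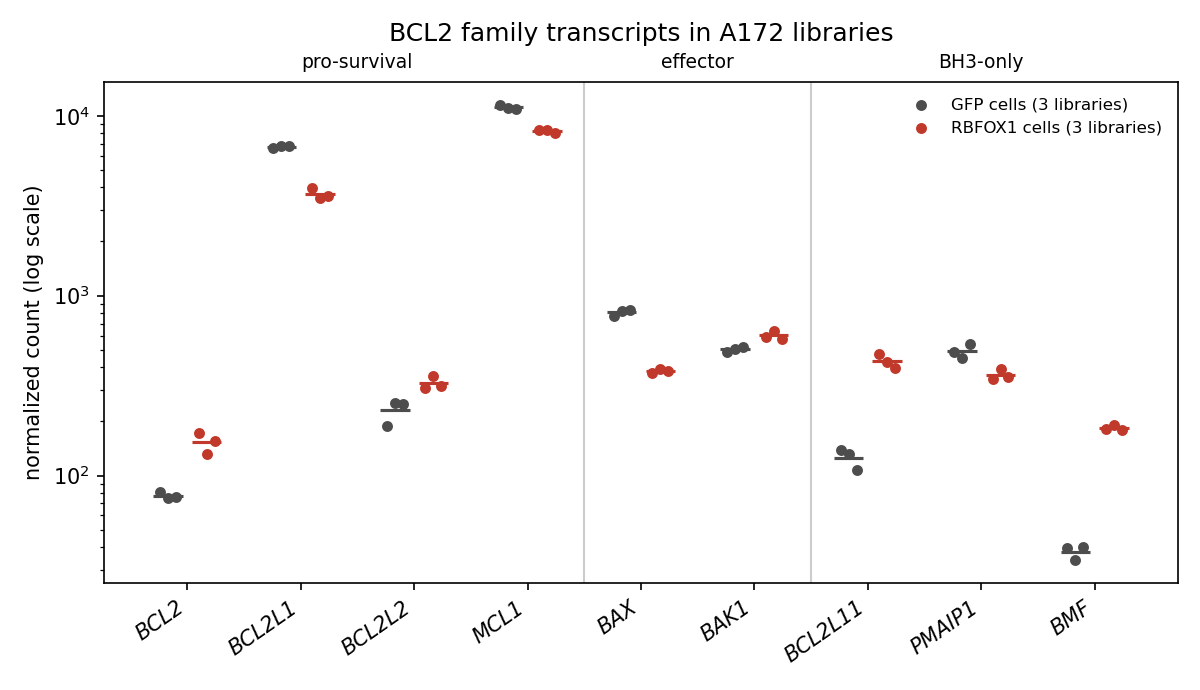
Normalized counts (log axis) of the 9 tested BCL2 family genes in each library of GFP (grey) and RBFOX1 (red) A172 cells, with the group mean as a bar and the genes ordered by role. The groups do not overlap for any gene, and BMF and BCL2L11 show the widest separation.

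The BH3-only genes held the largest changes. Coordinates here and below are those of GRCh38 in GENCODE release 44. BMF (ENSG00000104081, chr15:40087890-40108892, minus strand) encodes a BH3-only protein that is held on the myosin motor complex through dynein light chain and released when cells lose attachment. It had 39.5, 33.9 and 40.0 normalized counts in the GFP libraries and 181, 190 and 178 in the RBFOX1 libraries. The group means were 37.8 ± 3.41 and 183 ± 6.08, and the log2 fold change was 2.26 (SE 0.130, adjusted p = 1.53e-11), or 4.79-fold higher. These values rested on 29 to 65 counts per GFP library, the lowest counts among the tested members, and the spread within either group was small beside the difference.

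BCL2L11 (ENSG00000153094, chr2:111119378-111168444, plus strand) encodes BIM, which binds every pro-survival member and can also activate BAX and BAK1 directly. The GFP libraries held 138, 132 and 107 normalized counts and the RBFOX1 libraries 473, 425 and 398. The means rose from 126 ± 16.1 to 432 ± 38.1, and the log2 fold change was 1.75 (SE 0.101, adjusted p = 1.62e-11), or 3.37-fold higher. The lowest RBFOX1 library stood far above the highest GFP library. The count adds up all isoforms of BIM, which differ in potency and in binding to dynein light chain.

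PMAIP1 (ENSG00000141682, chr18:59899996-59904305, plus strand) encodes NOXA, a BH3-only protein that binds mainly MCL1 and promotes its degradation. It went the other way, with 485, 448 and 536 normalized counts in GFP and 343, 391 and 352 in RBFOX1 libraries. The means were 490 ± 44.1 and 362 ± 25.4, and the log2 fold change was -0.43 (SE 0.0816, adjusted p = 0.00018). The gap between the groups was narrow beside that of BMF and BCL2L11. Per kilobase of exon, PMAIP1 nevertheless made up most of the summed level of these 3 BH3-only genes in both groups. Its share was 89.7% ± 1.42 in GFP and 62.9% ± 2.31 in RBFOX1 cells. The share of BCL2L11 went from 7.53% ± 1.39 to 24.4% ± 2.27 and that of BMF from 2.78% ± 0.111 to 12.8% ± 0.164.

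The effectors moved apart. BAX (ENSG00000087088, chr19:48954815-48961798, plus strand), which resides mostly in the cytosol until activated, had 766, 824 and 831 normalized counts in GFP and 374, 391 and 382 in RBFOX1 libraries. It fell from 807 ± 35.8 to 382 ± 8.58, and the log2 fold change was -1.07 (SE 0.0677, adjusted p = 6.29e-11). At 2.10-fold lower this was the largest fall among the members, and the groups lay far apart. BAK1 (ENSG00000030110, chr6:33572547-33580293, minus strand), which sits in the mitochondrial outer membrane, had 486, 507 and 519 normalized counts in GFP and 591, 638 and 573 in RBFOX1 libraries. Its rise from 504 ± 17.04 to 601 ± 33.9 was the smallest difference among the members, for a log2 fold change of 0.26 with a standard error of 0.0688, a 95% interval of 0.11 to 0.40 and an adjusted p of 0.00421.

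Within a library the counts of BAX were 1.58, 1.63 and 1.60 times those of BAK1 in GFP replicates 1, 2 and 3, and 0.632, 0.612 and 0.667 times in RBFOX1 replicates 1, 2 and 3. This ratio does not depend on how libraries are scaled, and its groups were far apart. Per kilobase of exon BAX was 57.8% ± 0.375 of the summed effector level in GFP and 35.2% ± 0.985 in RBFOX1 cells. With the longest annotated transcript as the length these shares were 72.3% and 50.9%, so that the order of both effectors in RBFOX1 cells depends on the length used while the fall in the share of BAX does not.

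**Figure D2:**
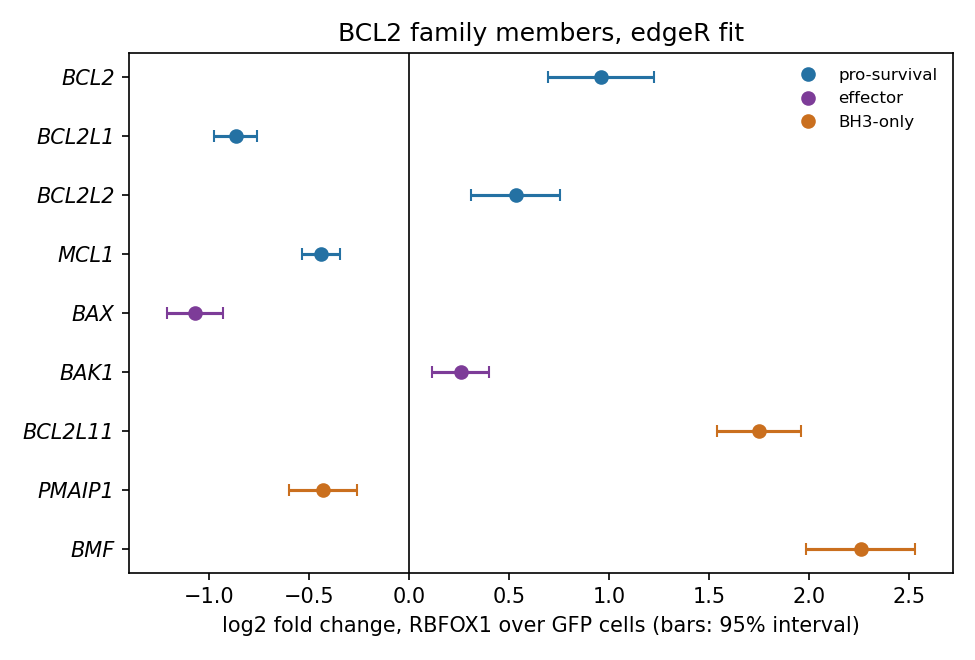
Log2 fold change of RBFOX1 over GFP cells for the 9 tested members (points, coloured by role) with 95% intervals from the edgeR fit over all genes. No interval includes 0, and each role holds members on both sides.

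The pro-survival genes split by abundance, the 2 abundant members falling and the 2 scarce ones rising. BCL2L1 (ENSG00000171552, chr20:31664452-31723989, minus strand), the gene of BCL-XL, had 6599, 6775 and 6786 normalized counts in GFP and 3971, 3506 and 3587 in RBFOX1 libraries. The means were 6720 ± 105 and 3688 ± 248, and the log2 fold change was -0.87 (SE 0.0518, adjusted p = 2.64e-11) or 1.83-fold lower. All RBFOX1 libraries lay well under the GFP range. The count includes the short isoform BCL-XS, a splice product that favours death, and the forms were not separated here.

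MCL1 (ENSG00000143384, chr1:150560895-150579738, minus strand), a short-lived protein that restrains BAK1 and BIM, was the most abundant member. Its libraries held 11481, 11068 and 10968 normalized counts in GFP and 8322, 8327 and 8042 in RBFOX1 cells. The means were 11172 ± 272 and 8230 ± 163. The log2 fold change was -0.44 (SE 0.0461, adjusted p = 1.13e-07), or 1.36-fold lower, and the 6 libraries formed 2 tight groups. MCL1 and its partner PMAIP1 fell to a like extent, since MCL1 had 22.9 ± 2.21 counts for each count of PMAIP1 in GFP and 22.8 ± 1.48 in RBFOX1 cells, with overlapping libraries. A later annotation places 328 of the 6222 exon bases of MCL1 under an antisense-named noncoding gene, ADAMTSL4-AS1, of the same strand. The annotation used for counting held that gene too. Reads in the shared bases would have been dropped as ambiguous if the exons overlapped in that annotation as well. ADAMTSL4-AS1 itself was low, at 51.6 ± 3.81 normalized counts in the GFP group against 27.6 ± 2.83 in the RBFOX1 group.

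BCL2 (ENSG00000171791, chr18:63123346-63320128, minus strand), the founding member of the family, was scarce. It had 80.7, 74.7 and 75.8 normalized counts in GFP and 172.3, 131.0 and 155.2 in RBFOX1 libraries. The RBFOX1 libraries were more spread than the GFP libraries and all lay above them, with means of 77.1 ± 3.19 and 153 ± 20.8. The log2 fold change was 0.96 (SE 0.127, adjusted p = 2.83e-06), or 1.94-fold higher. BCL2L2 (ENSG00000129473, chr14:23298790-23311751, plus strand), the gene of BCL-W, had 189, 253 and 249 normalized counts in GFP and 307, 357 and 313 in RBFOX1 libraries, with means of 230 ± 35.7 and 326 ± 27.7, and the log2 fold change was 0.53 (SE 0.107, adjusted p = 0.000336). GFP replicate 1 was lower than the other GFP libraries. Without that replicate the log2 fold change of BCL2L2 was 0.39 and still passed the threshold. BCL2L2 shares 815 of its 4840 exon bases with the readthrough gene BCL2L2-PABPN1 in the later annotation. The annotation used for counting held both genes. Reads in the shared part would have been dropped as ambiguous if the exons overlapped there as well. The count of BCL2L2 and its level per kilobase would then be too low. The readthrough gene itself had at most 4 counts in a library.

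Within a library the ratio of BCL2L1 to BCL2L11 counts, a pro-survival gene over the BH3-only gene whose product it binds, was 47.9, 51.3 and 63.2 in GFP and 8.39, 8.25 and 9.01 in RBFOX1 cells. The ratio of BAX to BCL2 counts was 9.49, 11.0 and 11.0 in GFP and 2.17, 2.98 and 2.46 in RBFOX1 cells. Neither ratio overlapped between the groups. The first fell through a lower pro-survival and a higher BH3-only transcript, the second through a lower effector and a higher pro-survival transcript.

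Levels of different genes can be set side by side only per length, and were divided here by the kilobases of the union of annotated exons. In GFP cells the order was MCL1 (1796 ± 43.7 normalized counts per kilobase), BCL2L1 (1601 ± 25.0) and BAX (312 ± 13.8), followed by BAK1 (228 ± 7.70) and PMAIP1 (224 ± 20.2), whose libraries overlapped. BCL2L2 (47.6 ± 7.37) and BCL2L11 (18.7 ± 2.39) came next, and BMF (6.94 ± 0.625) and BCL2 (6.11 ± 0.253) overlapped at the low end, above BCL2A1. In RBFOX1 cells MCL1 (1323 ± 26.2) and BCL2L1 (879 ± 59.1) were followed by BAK1 (272 ± 15.3), PMAIP1 (166 ± 11.6) and BAX (148 ± 3.32). BCL2L2 (67.3 ± 5.72) and BCL2L11 (64.1 ± 5.66) overlapped there, then BMF (33.6 ± 1.12) and BCL2 (12.1 ± 1.65). By this length BAX went from the third to the fifth place, a change that rests in part on the length used, as given above for BAX and BAK1. Together MCL1 and BCL2L1 carried nearly all of the pro-survival level in both groups, with 52.0% ± 1.07 and 46.4% ± 0.893 in GFP and 58.0% ± 1.31 and 38.5% ± 1.54 in RBFOX1 cells. BCL2, although it rose, went only from 0.177% ± 0.00680 to 0.531% ± 0.0624, and BCL2L2 from 1.38% ± 0.218 to 2.95% ± 0.297.

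**Figure D3:**
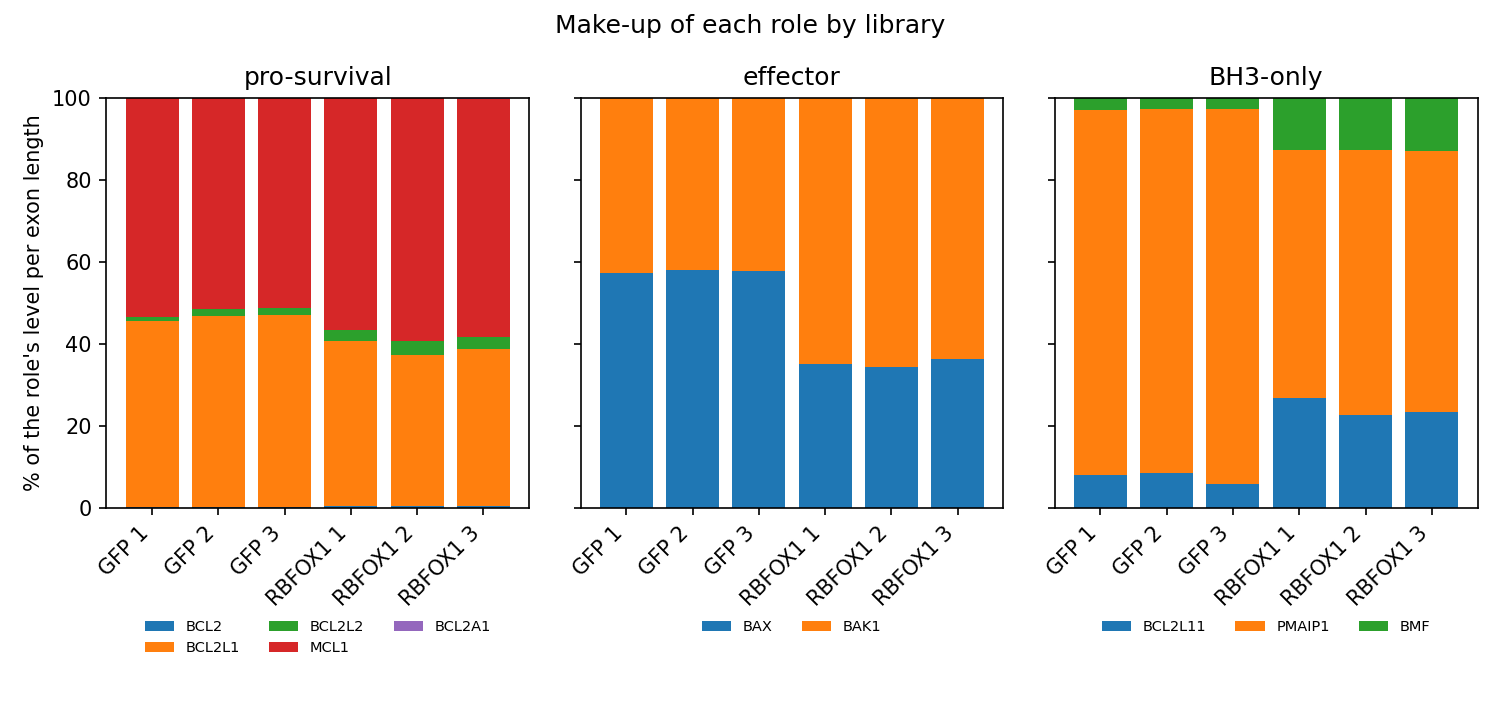
Share of each member in the summed level per exon length of its role (percent, bars from 0 to 100) in the 3 GFP and 3 RBFOX1 libraries. BAX takes a smaller part of the effector level and BCL2L11 and BMF a larger part of the BH3-only level in every RBFOX1 library than in any GFP library, while MCL1 and BCL2L1 fill most of the pro-survival level throughout.

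Since RBFOX1 recognises TGCATG, the 3' UTR of the canonical transcript of each member (GENCODE release 44, GRCh38) was searched for these letters on the transcribed strand. BCL2L2 held 5 sites in 2786 bases. Only 0.738% of the 3792 genes with a 3' UTR of 2000 to 4000 bases hold at least 5, and 58.4% of them hold at least 1. BCL2, BCL2L1, BAK1, PMAIP1 and BMF held 1 site each, whereas MCL1, BCL2A1, BAX and BCL2L11 held none, in 3' UTRs of 2817, 175, 162 and 4213 bases. Sites are shown with 12 bases on either side, the capitals marking the TGCATG, for BCL2L2 (4 of its 5 sites) because of their number, for PMAIP1 because its site lies 15 bases past the stop codon, and for BMF because it rose most.
BCL2L2 site 1 at chr14:23309434-23309439 (plus strand): tggacacgcgtgTGCATGtgcacgcatgct
BCL2L2 site 2 at chr14:23309456-23309461 (plus strand): cgcatgctggtgTGCATGctgggctgcctg
BCL2L2 site 3 at chr14:23310184-23310189 (plus strand): agccacactgttTGCATGggtgttacttgt
BCL2L2 site 4 at chr14:23310305-23310310 (plus strand): attcactccagaTGCATGccctgagccaga
PMAIP1 site at chr18:59902768-59902773 (plus strand): gcatcaaaaactTGCATGaggggactcctt
BMF site at chr15:40090015-40090020 (minus strand): ggcctcaaactgTGCATGtaagcctttgtt

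Members with a site and members without one each moved in both directions, and 9 genes are too few to relate the letters to direction. Of the 6 members with a site BCL2, BCL2L2, BAK1 and BMF rose and BCL2L1 and PMAIP1 fell, and of the 3 tested members without one BCL2L11 rose and MCL1 and BAX fell. Among all 199 tested genes with at least 5 sites the median log2 fold change was 0.12, with 40.7% higher and 24.6% lower in RBFOX1 cells, beside 27.1% higher and 30.0% lower of the 8918 tested genes with no site. Of the 2990 with 1 site, the number held by 5 of the members, 34.0% were higher and 27.3% lower. Of the 3109 with a 3' UTR of 2000 to 4000 bases, the class of BCL2L2, 33.1% were higher and 30.7% lower, and the genes with at least 5 sites were not matched for length. BCL2L2, at 0.53, lay above that median. A match of letters is a description of the sequence and not a binding site.

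Promoter sequences from RefSeq (GRCh38.p14), 250 bases before to 50 after the annotated start, were found for 8 of the 10 members, those of BCL2L2 and MCL1 being the exceptions. They were searched on both strands for the FOXO core GTAAACA, the E-box CACGTG that MYC and its relatives bind, and a p53 half-site consensus. The E-box was added after the BAX sequence had been seen. The FOXO core occurred in BCL2L11 alone of these members and in 3.42% of all 35116 promoters. BAX held 4 E-boxes. At least 1 was present in 7.26% of the 35116 promoters and at least 4 in 5 of them, BAX included. A p53 half-site was found in BAK1 alone of these members, and in 6.63% of all promoters. Only exact matches within these bases were counted. The absence of a match, as in BAX and PMAIP1, therefore does not show that a gene lacks such an element. The promoters of BCL2L11 and BAX are shown, as members with a match and large changes in opposite directions, with the FOXO core and the E-boxes in capitals.
BCL2L11 promoter, chr2:111120664-111120963 (plus strand): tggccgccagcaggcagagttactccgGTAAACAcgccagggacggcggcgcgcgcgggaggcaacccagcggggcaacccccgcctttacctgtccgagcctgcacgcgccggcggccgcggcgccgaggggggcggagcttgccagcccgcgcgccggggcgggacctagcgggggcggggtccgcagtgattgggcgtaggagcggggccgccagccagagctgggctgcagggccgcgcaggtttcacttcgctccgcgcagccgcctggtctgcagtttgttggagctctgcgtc
BAX promoter, chr19:48954625-48954924 (plus strand): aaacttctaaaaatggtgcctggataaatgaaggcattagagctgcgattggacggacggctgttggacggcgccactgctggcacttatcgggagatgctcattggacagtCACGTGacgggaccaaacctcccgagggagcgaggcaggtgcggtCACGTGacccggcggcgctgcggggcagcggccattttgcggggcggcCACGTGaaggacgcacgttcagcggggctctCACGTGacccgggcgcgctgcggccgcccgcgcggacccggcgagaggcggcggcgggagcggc

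Genes of transcription factors known to act on members were also measured. Of 13 in the list, 7 were higher, 2 lower and 4 not called. FOXO3, which activates BCL2L11 and BMF in many cell types, rose from 491 ± 12.99 to 1125 ± 35.9 normalized counts, and the log2 fold change was 1.19 (SE 0.0606, adjusted p = 2.33e-12). E2F1, which drives genes of the cell cycle and several BH3-only genes, had a log2 fold change of 1.04 (adjusted p = 2.61e-11). NFKB1, a subunit of the factor that induces BCL2A1 and BCL2L1, had one of -0.40 (adjusted p = 5.57e-05). RELA, another subunit of that factor, went the other way without being called (0.16, adjusted p = 0.0566), and FOXO1 was not called either (-0.15, adjusted p = 0.516). DDIT3, a stress factor that acts on BCL2L11, had one of -0.17 (adjusted p = 0.016, and up to 0.0580 over the alternatives). MYC, named for its place in the E-box search above, had a log2 fold change of 1.006 (adjusted p = 1.09e-09). The part of these factors in the members' values was not tested.

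The fall of BAX and PMAIP1 was shared by the list of p53 target genes. Of 22 listed genes, 21 were tested, 19 of them lower and 2 higher in RBFOX1 cells, with a median log2 fold change of -0.75. Leaving out BAX and PMAIP1, 17 of 19 were lower. FAS, a death receptor, fell from 564 ± 6.21 to 124 ± 11.0 normalized counts, and the log2 fold change was -2.17 (SE 0.0859, adjusted p = 5.06e-14). TNFRSF10B, a receptor for TRAIL, fell from 13013 ± 144 to 4559 ± 41.2, and the log2 fold change was -1.51 (SE 0.0460, adjusted p = 9.06e-16). The 2 that rose did so by little, SESN1 with a log2 fold change of 0.25 (adjusted p = 0.0035) and GADD45A with one of 0.17 (adjusted p = 0.0401, and up to 0.111 over the alternatives). The proliferation list moved as 1 block, with 10 of 10 genes higher and a median log2 fold change of 1.39. MKI67 had a log2 fold change of 2.05 (adjusted p = 6.35e-12) and AURKB one of 1.77 (adjusted p = 6.18e-13). Of all genes tested, 23.7% were higher and 22.9% lower in RBFOX1 cells, and both lists were chosen with earlier results of these data known. Proliferation and p53 target genes thus differed between the same groups as the members, and the part of either in the members' values was not tested. FAS and TNFRSF10B are also in the death receptor list described next, and BBC3 is also in the BH3-only list.

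The lists of apoptosis genes moved in both directions. Of 71 listed genes, 63 were tested, 22 were higher, 22 lower and 19 not called, with a median log2 fold change of -0.020. These 71 include the 13 transcription factor genes above (7 higher, 2 lower) and 10 genes for protein partners described below (4 higher, 0 lower). In each of the other lists, at least as many genes were lower as higher. Among the BH3-only genes that are not members, HRK, whose product binds BCL-XL, had a log2 fold change of 1.06 (adjusted p = 1.78e-05) and BID, which links death receptors to the mitochondrion, one of 0.29 (adjusted p = 0.00112). BBC3, the gene of PUMA and a p53 target like PMAIP1, had one of -0.42 (adjusted p = 0.00214), and BAD one of -0.27 (adjusted p = 0.00367). BIK was close to absent, with at most 5 counts in a library. The BH3-only genes BMF, BCL2L11, HRK and BID thus rose while PMAIP1, BBC3 and BAD fell.

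Of the further BCL2 homologues, BCL2L12 rose (log2 fold change 0.88, adjusted p = 1.95e-07), BCL2L13 fell (-0.43, adjusted p = 1.87e-06), BCL2L15 was not called and BOK, BCL2L10 and BCL2L14 had too few counts to be tested. In the list of mitochondrial release and the apoptosome, which also holds outer membrane channels and mitophagy receptors, 3 of 11 genes rose and 6 fell. CYCS, the gene of cytochrome c, had a log2 fold change of 0.57 (adjusted p = 2.03e-08) and VDAC3, a channel of the outer membrane, one of 0.25 (adjusted p = 0.000677). BNIP3, a mitophagy receptor, had one of -0.66 (adjusted p = 6.44e-08) and HTRA2, a protease that antagonises inhibitor of apoptosis proteins, one of -0.48 (adjusted p = 2.59e-06).

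Among the caspases, the initiator CASP8 had a log2 fold change of -0.31 (adjusted p = 0.000122). Of the 6 tested genes in the list of inhibitor of apoptosis proteins and their antagonist XAF1, BIRC5 and XAF1 rose and 3 fell. XAF1 had 5, 0 and 2 counts in the GFP libraries and 60, 110 and 43 in the RBFOX1 libraries. BIRC3 and BIRC2, ubiquitin ligases of TNF signalling, had log2 fold changes of -2.01 (adjusted p = 9.85e-15) and -0.71 (adjusted p = 4.68e-10). BIRC5, survivin, which also serves in mitosis, had one of 1.98 (adjusted p = 3.4e-15), in the range of the proliferation list. In the death receptor arm 5 of the 9 tested genes fell and 2 rose, FAS and TNFRSF10B showing the largest falls. TNFSF10, the gene of the ligand TRAIL, showed the largest change of that list, from 7.36 ± 1.64 to 50.1 ± 4.35 normalized counts (log2 fold change 2.84, adjusted p = 1.77e-08), on 7 to 9 counts per GFP library. CFLAR, the inhibitor of caspase-8 activation, had a log2 fold change of 0.23 (adjusted p = 0.000696).

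Of the 9 tested genes for partners that bind or turn over member proteins, 4 were higher and 5 not called. DYNLL2, the dynein light chain to which BMF binds, had a log2 fold change of 0.60 (adjusted p = 3.05e-07). MAPK8, the kinase JNK1 that phosphorylates BIM and BMF, had one of 0.21 (adjusted p = 0.0115, and up to 0.0932 over the alternatives).

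**Figure D4:**
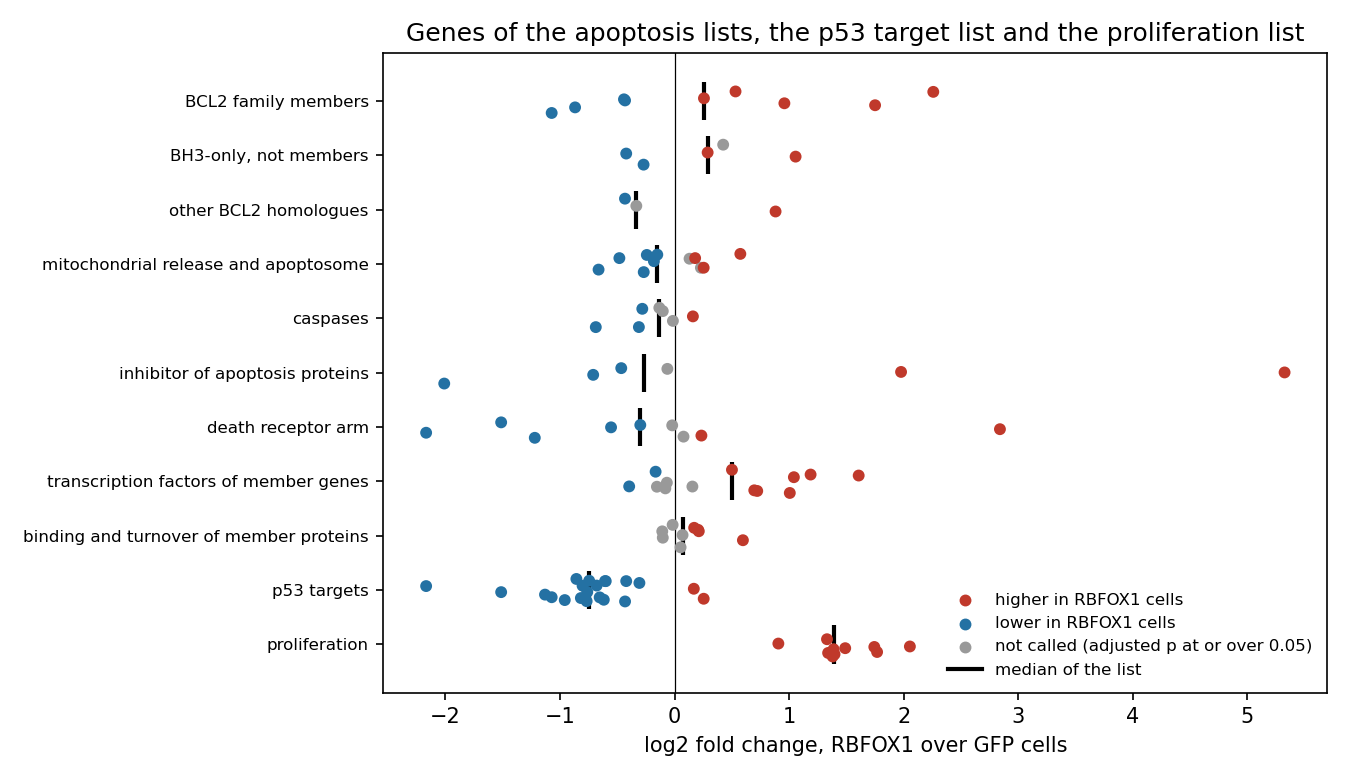
Log2 fold change of RBFOX1 over GFP cells for every tested gene (points, with random vertical spread) of the members, of each apoptosis list, of the p53 targets and of the proliferation list, coloured by call, with the median of each list as a vertical bar. The p53 targets lie mostly under 0, the proliferation genes all above it, and the members and most apoptosis lists on both sides.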

How the data were processed

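RNA of 6 A172 samples was sequenced by the authors as rRNA-depleted, stranded paired-end libraries, aligned to GRCh38 with HISAT2 and assigned to Ensembl release 87 genes by HTSeq-count (intersection-strict). The deposited files hold raw counts per gene, and 5 lines that name no gene (38.1 to 48.0% of read pairs) entered neither library sizes nor tests. A further deposited table holds the authors' own DESeq2 comparison (means, fold changes, errors and p-values) and was not used.

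In R 4.3.3, edgeR 4.0.16 scaled the counts by TMM and fitted a quasi-likelihood model of group alone to genes whose counts summed to at least 10, for a two-sided test. Normalized counts were scaled to the mean effective library size. DESeq2 1.42.0, limma-voom (limma 3.58.1), other scalings, filters and thresholds, a replicate block and the omission of each library were alternatives. The tests were checked on simulated data in which far fewer genes changed than passed the threshold here.

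Gene symbols (98.1% of identifiers matched), exon lengths and UTRs were taken from GENCODE release 44 (GRCh38), which is later than the annotation used for counting. The members and gene lists were chosen with earlier results of these data known. Named by rule were RBFOX1, the members, genes that share exons with them, and up to 2 risers and 2 fallers per list past the threshold, limited to means of 50 or more normalized counts and groups that did not overlap. The other genes named were chosen after their values were seen. Some genes that the rule names, and 1 sequence, are not reported here.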

Additional observations from a re-analysis of the deposited data

How the results depend on the processing

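Under 13 alternatives (other tools, scalings and filters, a replicate block and the omission of each library), all 117 values of the 9 tested members kept their direction and their side of the threshold. BAK1 came closest to it, with log2 fold changes of 0.21 to 0.30 and adjusted p-values of 0.00232 to 0.0345. Where a log2 fold change of at least 0.5 was also required, 4 members in place of 5 were higher (BAK1 lost) and 2 in place of 4 were lower (MCL1 and PMAIP1 lost), 14 genes of the apoptosis list were higher and 8 lower in place of 22 and 22, 0 p53 targets in place of 2 were higher, and of all genes 2983 were higher and 2407 lower in place of 4869 and 4711. The count of higher p53 targets was 1 with DESeq2, without a filter on low counts, with upper quartile scaling, at an adjusted p under 0.01 and with the replicate block, and 1 to 2 when a library was left out. GADD45A lost its call in 8, DDIT3 in 3 and MAPK8 in 2 of the 13 alternatives, and the cause was not tested.

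Whether libraries of the same replicate number were handled as pairs is not given in the sources used here. Deviations from the group means correlated by -0.172, 0.0348 and -0.0568 between libraries of the same number, and by -0.157 to 0.178 between libraries of different numbers. With 3 libraries per group, such correlations cannot decide it. With the replicate block 9046 genes passed the threshold in place of 9580, 8968 of them shared, and no member lost its call. Depth limited BCL2A1 most, whose 6 counts in all allow no comparison, and limits of this kind cover counting error only. Gene-level counts do not separate isoforms.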
